A study of Bos taurus with 15 samples.

Results

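The CCN genes encode 6 related matricellular proteins, of which CCN1 to CCN5 are described here, found in the expression table by their gene symbols. All 5 were among its 38001 bovine genes, each on 1 row, and 4 of them (CCN1, CCN2, CCN3 and CCN5) had enough counts to be among the 11834 genes tested. CCN4 had too few. The libraries came from bovine meniscal fibrochondrocytes, the matrix-forming cells of the knee meniscus, cultured in collagen and collected at day 28. Every group, the controls included, had 3 days of growth medium with 10% FBS and then 25 days of chondrogenic medium with ascorbic acid (50 µg/ml), dexamethasone (1e-07 M) and TGF-β3 (10 ng/ml). There were 5 groups of 3 libraries: tissue made with no mold, the middle and the post region of tissue from an unanchored mold, and the middle and the post region of tissue from an anchored mold. No animal age, strain or number of donors stands in the labels. Nor do they state that a group's 3 libraries are separate tissues, and a p-value here therefore reflects library-to-library spread that could be technical.

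CCN proteins are secreted into the matrix, where they bind integrins, heparan sulfate proteoglycans, LRP receptors and growth factors rather than forming fibres themselves. CCN1 (CYR61) and CCN2 (CTGF) are widely used readouts of YAP/TAZ-TEAD signalling and of the SRF/MRTF response to cell tension, and CCN2 is also a classic TGF-β target in connective tissue. CCN3 (NOV) often opposes CCN2, CCN4 (WISP1) is known as a Wnt-induced gene, and CCN5 (WISP2) lacks the C-terminal cystine-knot module that the other members carry.

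CCN5 and CCN3 were lower in the post regions than in the middle regions, CCN5 by 2.60-fold and CCN3 by 1.44-fold. CCN5 was also higher in both middle regions than in tissue without a mold, and CCN3 in the anchored middle. These calls against no mold depended on single libraries: those of CCN5 were lost without no mold 2, and that of CCN3 without no mold 3. CCN2 had group means within 1.06-fold of each other, and CCN1 within 1.32-fold, and neither gene passed the test in any of the 12 comparisons. No member passed the test between anchored and unanchored tissue, where 0 of all 11834 tested genes passed. Values are CPM, each gene's counts relative to its library's total (per 1e+06 counts), scaled between libraries by the TMM method. They come from 3′-tag libraries and are not divided by gene length, so levels are compared between groups and not between genes.

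Library totals ran from 2060781 to 7415701 counts, and the shallowest were no mold 1 and 3 and anchored middle 2. All 8 fibrochondrocyte markers were detected well enough to be tested, among them COL1A1, COL2A1, SOX9 and ACAN. Of these 8 markers, 6 were lower in the post than in the middle regions (median log2 difference -0.70; 8.51% of all tested genes passed, in either direction) and 5 were lower in molded tissue than without a mold (median -0.68; 16% of all tested genes passed), by edgeR's quasi-likelihood test at a Benjamini-Hochberg adjusted p of 0.05, the rule used throughout. Their summed level was 20335 to 32210 CPM in the unanchored middle, 27839 to 31066 in the anchored middle, 14798 to 20780 in the unanchored post, 17095 to 22584 in the anchored post and 19311 to 28976 without a mold. COL1A1 and COL1A2 made up most of that sum (11014 and 8275 CPM in molded tissue), so it says little of the other markers. COL2A1 stood at 84.0 CPM in molded tissue against 708 without a mold (log2 -3.24, adjusted p = 1.59e-08 by edgeR). COL1A1, COL1A2 and FMOD did not pass there (log2 -0.04, 0.28 and 0.10). None of the 5 endothelial markers (summed level at most 1.89 CPM) and none of the 3 Schwann cell markers (at most 0.506 CPM) could be tested, and the 5 leukocyte markers summed to 4.57 to 9.11 CPM, with CD14 the 1 tested. Of 4 mural cell markers 3 were tested (sum of the 4: 50.6 to 104 CPM), RGS5 had 1 count in all, and none passed in the main comparisons. Of 4 skeletal muscle markers, CKM had 5 counts, MYOG had 0, ACTA1 was higher in the posts (log2 1.02, adjusted p = 0.042; non-whole values hold 89.8% of its counts) and DES was lower in molded tissue (log2 -0.71, adjusted p = 0.0142). FABP4, an adipocyte marker, was higher in molded tissue (log2 0.58, adjusted p = 0.00623), and PLIN1, the other adipocyte gene measured, passed in none of the main comparisons. The part of these markers in the CCN results was not tested. In bulk RNA, fewer cells of a type and less RNA per cell cannot be told apart, which holds for every value below.

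**Figure D1:**
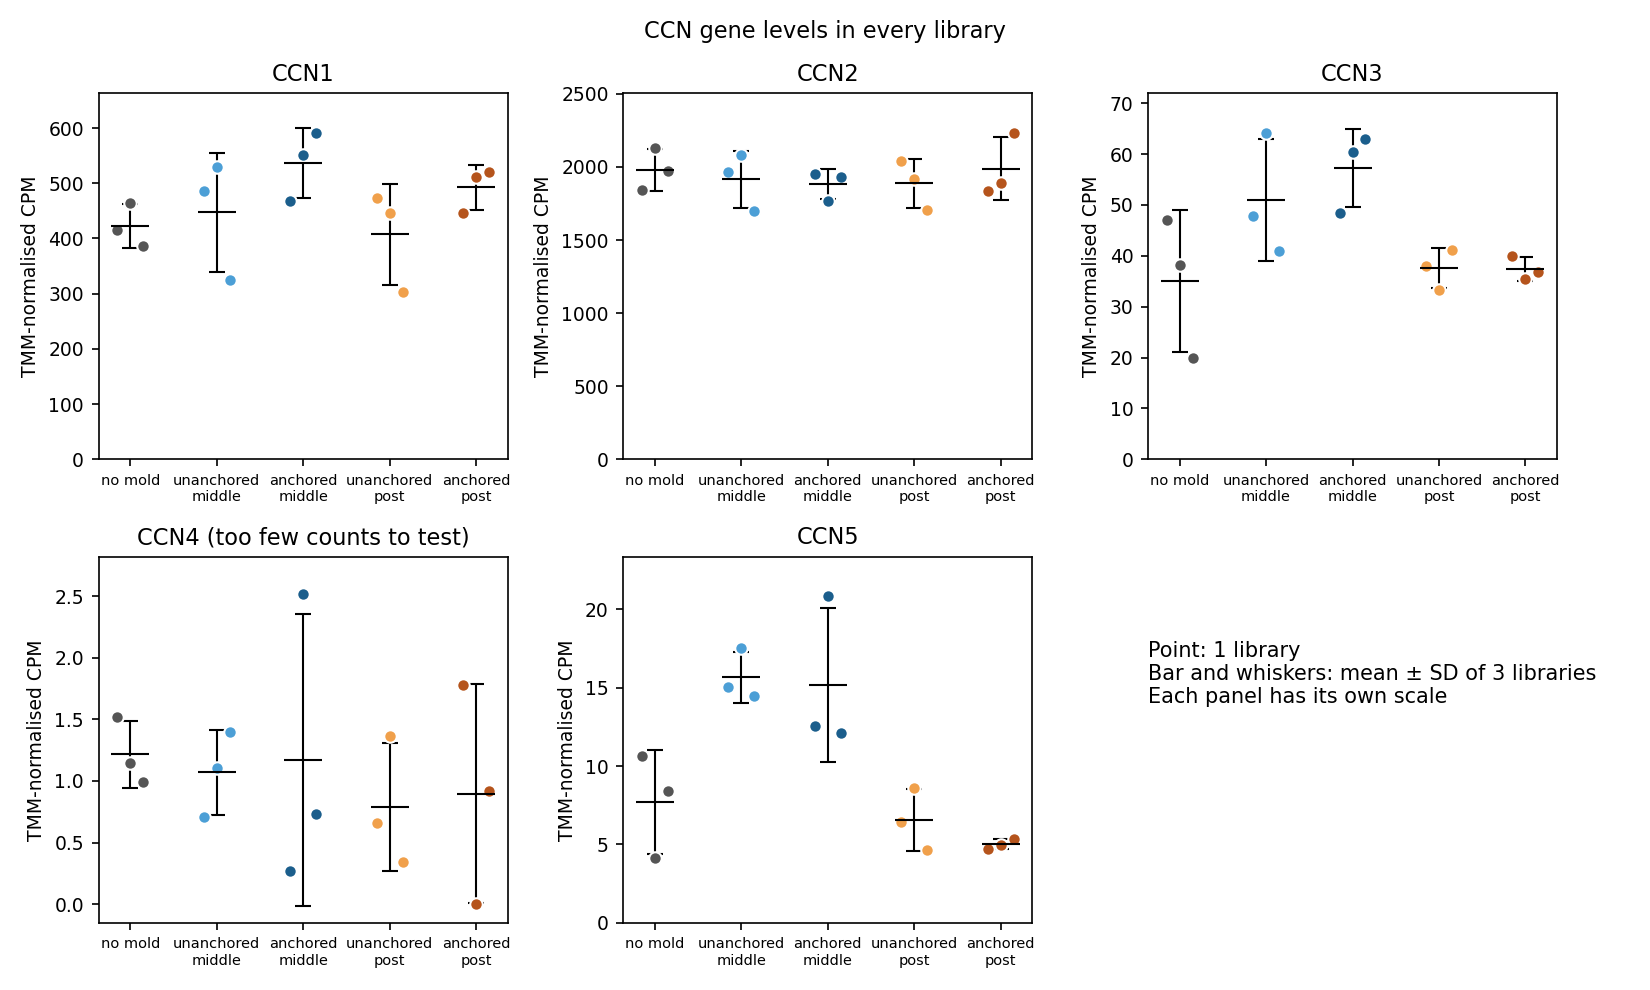
TMM-normalised CPM of CCN1, CCN2, CCN3, CCN4 and CCN5 in each of the 15 libraries, with 1 panel per gene on its own axis; points are libraries, and the bars give the mean and SD of 3. CCN5 sat between 12.1 and 20.8 CPM in the 6 middle libraries and between 4.67 and 8.58 CPM in the 6 post libraries, while the CCN2 libraries lay within 1.31-fold of each other.

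CCN5 had the widest spread of the 4 tested members. It read 15.0, 17.5 and 14.5 CPM in the unanchored middle (15.7 ± 1.62, SD, n = 3) and 12.5, 20.8 and 12.1 CPM in the anchored middle (15.2 ± 4.92). It read 6.40, 8.58 and 4.67 CPM in the unanchored post (6.55 ± 1.96) and 4.73, 4.93 and 5.37 CPM in the anchored post (5.01 ± 0.324). Without a mold the libraries read 10.6, 4.11 and 8.44 CPM (7.73 ± 3.32). All 6 middle libraries stood above all 6 post libraries, and the 3 libraries without a mold stood below every middle library and overlapped the unanchored posts. These levels rest on 793 counts in all, 17 to 111 per library.

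Averaged over the mold types, CCN5 was lower in the post than in the middle by 1.38 on the log2 scale (log2 -1.38, SE 0.17, 95% interval -1.73 to -1.03), with an adjusted p of 2.11e-05 by edgeR's quasi-likelihood test with Benjamini-Hochberg adjustment. That was the 16th smallest p of the 11834 genes. Within anchored tissue the log2 difference was -1.49 (SE 0.249, adjusted p = 0.0019 by edgeR), and within unanchored tissue -1.27 (SE 0.232, adjusted p = 0.0145). The difference between these log2 differences was -0.22 (95% interval -0.94 to 0.50, adjusted p = 1 by edgeR), so a region effect that depends on anchoring was not detectable, and the interval allows one of either sign. The averaged call and the call in anchored tissue passed under every alternative run. The call in unanchored tissue was lost without unanchored middle 2 (adjusted p = 0.129 by edgeR), without unanchored post 1 (0.075) and without unanchored post 3 (0.153).

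CCN3 differed in the same direction and by less. It read 47.8, 64.2 and 41.0 CPM in the unanchored middle (51.0 ± 11.9, SD, n = 3), and 48.4, 60.3 and 62.9 CPM in the anchored middle (57.2 ± 7.72). The posts read 38.1, 33.4 and 41.2 CPM (unanchored, 37.5 ± 3.93) and 40.0, 35.4 and 36.9 CPM (anchored, 37.5 ± 2.34). The libraries without a mold read 47.1, 38.2 and 19.8 CPM (35.0 ± 13.9). Of the 6 middle libraries 5 lay above the highest post library, and the exception was unanchored middle 3. No mold 3, one of the 2 shallowest libraries, held the lowest CCN3 level, with 40 counts, and the range over libraries was 40 to 431 counts.

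The averaged difference of CCN3 between post and middle was -0.52 on the log2 scale (SE 0.122, 95% interval -0.77 to -0.27, adjusted p = 0.00925 by edgeR, rank 332 by p). It passed under every alternative run, with adjusted p-values of 4.62e-07 to 0.0479. Taken alone, the anchored regions gave -0.60 (SE 0.173, adjusted p = 0.0723) without overlap of their libraries, and the unanchored regions -0.44 (SE 0.172, adjusted p = 0.253) with overlap. Neither passed, and the interaction of CCN3 was -0.16 (95% interval -0.67 to 0.34, adjusted p = 1). The anchored difference of CCN3 passed with no filter on low counts (adjusted p = 0.000221 by edgeR). It also passed when only the 2 groups compared were fitted (0.0337) and without anchored middle 1 (0.0347), by edgeR. The unanchored difference of CCN3 passed with no filter (0.0337 by edgeR). With no filter more genes passed in all, 479 against 227 in the anchored and 272 against 53 in the unanchored regions.

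CCN1, a mechanosensitive immediate-early gene, and CCN2 did not pass between regions. CCN1 differed by -0.13 on the log2 scale (95% interval -0.36 to 0.10, adjusted p = 0.522 by edgeR) and CCN2 by 0.03 (-0.14 to 0.19, adjusted p = 0.874). For CCN2 the interval bounds the post level at 0.909 to 1.14 times the middle level. So 2 of the 4 tested members were called between post and middle, beside 8.51% of all tested genes (1007, of which 393 were higher and 614 lower in the post). Within anchored tissue 1 of 4 was called beside 1.92% of all genes, and within unanchored tissue 1 of 4 beside 0.448%. In the separate mold types CCN1 gave -0.12 (anchored, adjusted p = 0.79) and -0.14 (unanchored, 0.749), and CCN2 0.08 (0.819) and -0.02 (0.956), by edgeR.

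**Figure D2:**
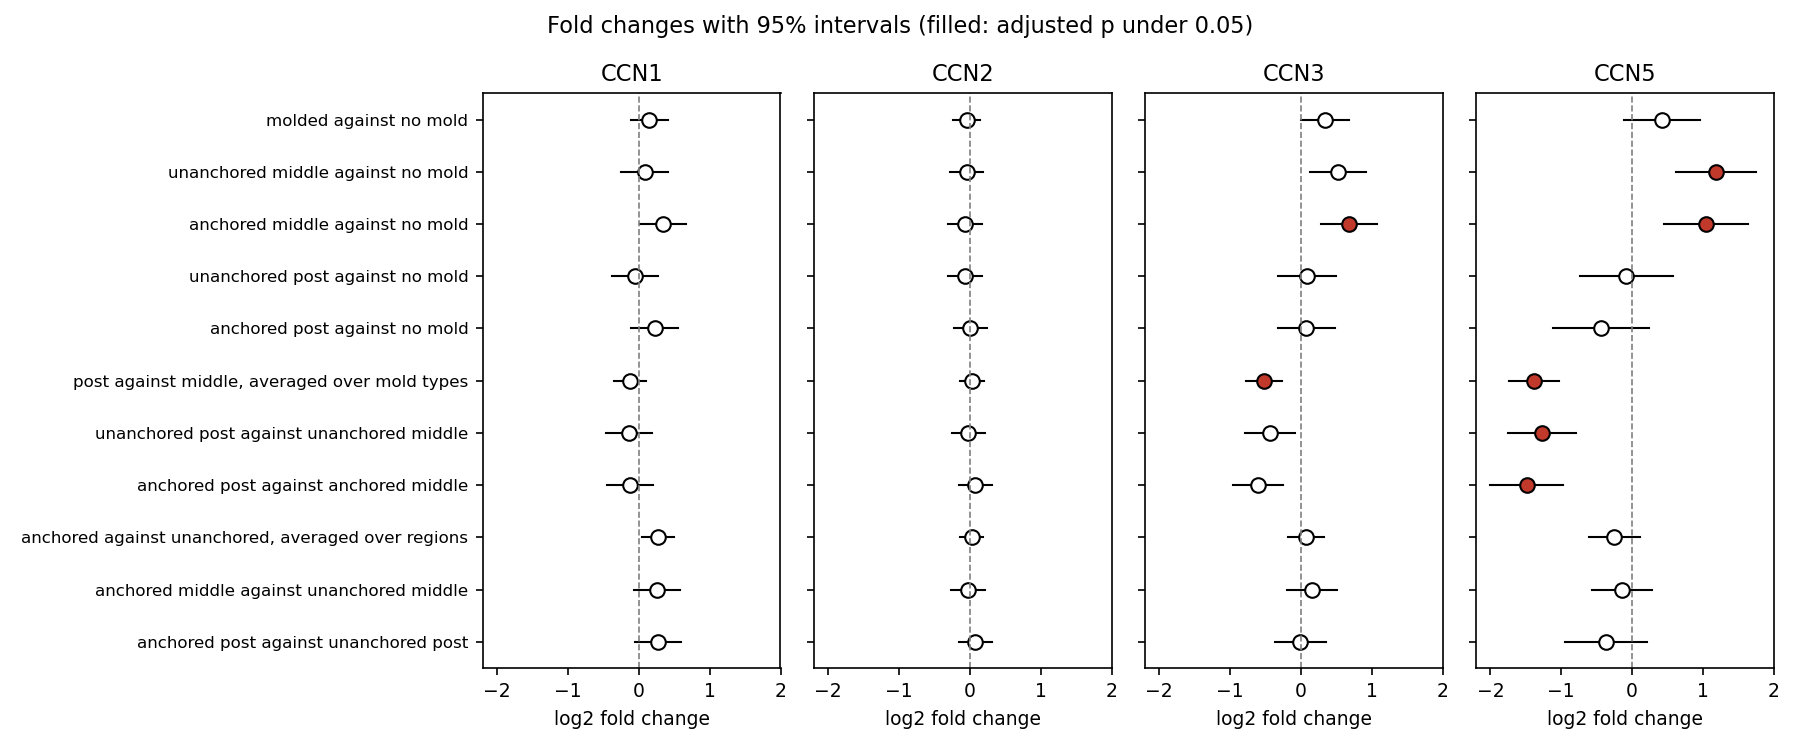
Log2 difference of CCN1, CCN2, CCN3 and CCN5 in the comparisons of regions, mold and anchoring, with points for the estimate of edgeR's model, filled where the adjusted p was under 0.05, and bars for its 95% interval. The CCN5 interval for post against middle (-1.73 to -1.03) and the CCN3 interval (-0.77 to -0.27) exclude 0, and all those of CCN2 include 0.

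**Figure D3:**
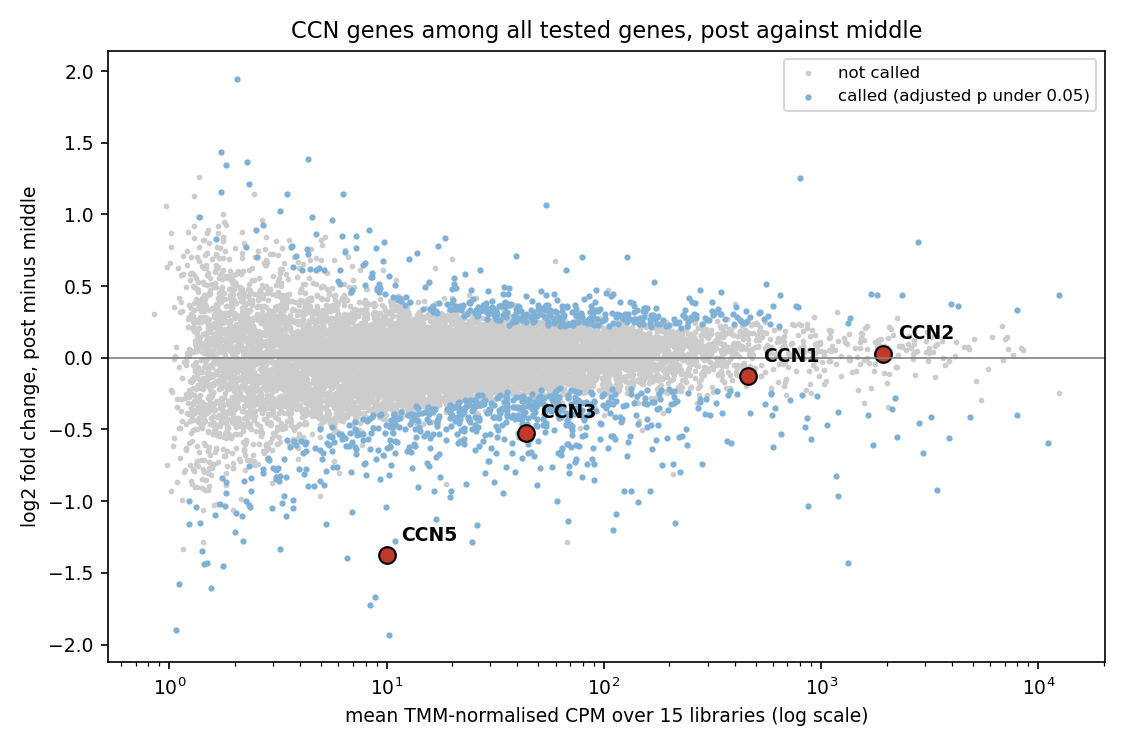
Log2 difference of post against middle, averaged over mold types, against mean level (TMM-normalised CPM, log scale) for all 11834 tested genes, with the CCN genes marked. CCN5 lies at -1.38 and CCN3 at -0.52, both below the centre of the cloud, and CCN1 and CCN2 lie near 0, where the median of all genes was -0.01.

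Against tissue without a mold, CCN5 passed the test in both middle regions and in neither post. In the unanchored middle CCN5 was 2.27-fold higher (log2 1.19, SE 0.276, adjusted p = 0.0057 by edgeR) and in the anchored middle 2.06-fold higher (log2 1.04, SE 0.285, adjusted p = 0.0166), both without overlap of the libraries. For the unanchored post the log2 value was -0.08 (95% interval -0.74 to 0.57, adjusted p = 0.91) and for the anchored post -0.45 (-1.12 to 0.23, adjusted p = 0.483). The anchored post value of CCN5 was -0.91 without no mold 2, -0.14 without no mold 1 and 0.29 without the 3 shallowest libraries, none of them called. These 4 comparisons share the 3 no-mold libraries. Both CCN5 calls were lost without no mold 2, the lowest of the 3, with log2 0.72 (adjusted p = 0.109) in the unanchored middle and log2 0.58 (adjusted p = 0.23) in the anchored middle, by edgeR.

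CCN3 was 1.60-fold higher in the anchored middle than without a mold (log2 0.68, SE 0.192, adjusted p = 0.0202 by edgeR), with no overlap. The call for CCN3 was lost without no mold 3 (log2 0.45, adjusted p = 0.128), without anchored middle 3 (0.59, adjusted p = 0.0863) and without the 3 shallowest libraries (0.54, adjusted p = 0.181), by edgeR. In the unanchored middle the CCN3 difference was 0.53 (SE 0.191, adjusted p = 0.066), which passed with no filter on low counts (adjusted p = 0.00118), with only the groups compared (0.0399), without no mold 1 (0.029) and without unanchored middle 3 (0.0288). In both posts the CCN3 value was 0.08 (adjusted p = 0.845 in the unanchored and 0.872 in the anchored post).

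CCN1 read 415, 465 and 386 CPM without a mold (422 ± 40.0, SD, n = 3) and 468, 550.3 and 592 CPM in the anchored middle (537 ± 63.1). These 2 groups did not overlap, but the log2 difference of 0.34 (95% interval 0.02 to 0.67, adjusted p = 0.16 by edgeR) did not pass; with no filter on low counts it was 0.39 with an adjusted p of 0.0109. CCN1 gave 0.08 (adjusted p = 0.782) in the unanchored middle, -0.05 (0.882) in the unanchored post and 0.22 (0.467) in the anchored post. The CCN2 differences from no mold were -0.05, -0.07, -0.07 and 0.01 in the unanchored middle and post and then the anchored middle and post, with adjusted p-values of 0.829, 0.772, 0.737 and 0.989. The members called were thus 1 of 4 in the unanchored middle (background 14.8% of tested genes), 2 of 4 in the anchored middle (13.3%), 0 of 4 in the unanchored post (9.02%) and 0 of 4 in the anchored post (5.56%).

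Averaged over the 4 molded groups, no tested member was called against no mold, where 16% of tested genes were called. The log2 values were 0.15 for CCN1 (adjusted p = 0.48), -0.05 for CCN2 (0.794), 0.34 for CCN3 (0.161) and 0.43 for CCN5 (0.291), by edgeR. CCN3 at an unadjusted p of 0.0468 passed with no filter on low counts (log2 0.39, adjusted p = 0.0153), but was 0.11 (adjusted p = 0.745) without no mold 3, 0.54 (0.0651) without no mold 1 and 0.23 (0.611) without the 3 shallowest libraries. CCN5 was -0.040 without no mold 2. For CCN5 that average joins the middle regions, which stood above no mold, with the posts, which overlapped it.

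Anchoring left every tested member short of the threshold, as it did all genes. By edgeR 0 of 11834 genes passed averaged over regions (0%), with 648 at an unadjusted p under 0.05 and 0 by both DESeq2 and limma-voom. CCN1 read 487, 530.0 and 325 CPM in the unanchored middle (447 ± 108, SD, n = 3) and 474, 446 and 302 CPM in the unanchored post (407 ± 92.1), and 446, 512 and 520.1 CPM in the anchored post (493 ± 40.5). The lowest CCN1 value in both unanchored regions was that of library 3. The mean was 515 CPM in anchored and 427 CPM in unanchored tissue, and the log2 difference of 0.27 (SE 0.111, 95% interval 0.04 to 0.50) had an unadjusted p of 0.0233 and an adjusted p of 0.881. It was 0.26 in the middle and 0.28 in the post. These CCN1 values rest in part on the libraries numbered 3 of unanchored tissue: the middle value was 0.077 without unanchored middle 3, and the post value 0.10 without unanchored post 3. The averaged value was 0.18 when either one was left out. These libraries were not left out together, and the labels do not say whether they share a tissue. Without unanchored middle 2 the middle value was 0.40.

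The other members gave log2 differences of 0.03 (CCN2, 95% interval -0.14 to 0.19), 0.07 (CCN3, -0.18 to 0.33) and -0.25 (CCN5, -0.61 to 0.11) between anchored and unanchored tissue. These had adjusted p-values of 0.991, 0.971 and 0.936. Within the middle they were -0.02, 0.16 and -0.14, and within the post 0.07, -0.01 and -0.36. In these 2 comparisons edgeR, DESeq2 and limma-voom again called 0 genes (0% and 0%), with 366 in the middle and 454 in the post at an unadjusted p under 0.05. The interaction of anchoring and region, at 0.01 for CCN1 (95% interval -0.44 to 0.47) and 0.10 for CCN2 (-0.23 to 0.43), also had 0% of genes called by the 3 tools and 223 at an unadjusted p under 0.05.

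CCN2 was the steadiest of the tested members. It read 1841, 2128 and 1969.9 CPM without a mold (1979 ± 144, SD, n = 3), 1963, 2083 and 1700.4 CPM in the unanchored middle (1916 ± 196), and 2039, 1918 and 1706 CPM in the unanchored post (1888 ± 168). The anchored middle read 1952, 1769 and 1928 CPM (1883 ± 99.5) and the anchored post 1839, 1889 and 2235 CPM (1988 ± 215). All groups overlapped. The SD of log2 CPM over the 15 libraries was 0.112 for CCN2, and 6.81% of the 7708 tested genes with a mean of at least 10 CPM had a smaller one. The same share was 80.0% for CCN1, 96.5% for CCN3 and 99.7% for CCN5. This SD includes counting error, which weighs more where counts are few: CCN2 had 155355 counts in all and CCN5 793. These shares were not adjusted for level. Of the CCN2 counts, 47.7% sit in values that are not whole, in 6 of the 15 libraries, as when a read is shared between 2 genes. The fractional part was 0.5 in each, and how many reads were shared is not known from the values. For every gene, this share takes the full count of each library whose value is not whole. It is therefore not the fraction of reads that were shared. The share was 9.00% for CCN1 and 0% for CCN3, CCN4 and CCN5.

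From the highest to the lowest group mean, CCN5 ran from the unanchored middle through the anchored middle, no mold and the unanchored post to the anchored post. The only neighbours in that order that differed by the test were the anchored middle and no mold. CCN3 ran from the anchored middle through the unanchored middle, unanchored post and anchored post to no mold, and CCN1 from the anchored middle through the anchored post, unanchored middle and no mold to the unanchored post. CCN2 ran from the anchored post through no mold, unanchored middle and unanchored post to the anchored middle. None of the neighbours compared in these 3 orders passed the test with the filter on low counts; the unanchored middle and post, neighbours for CCN3, passed without it (above). The anchored post and unanchored middle (neighbours for CCN1) and the unanchored post and anchored middle (neighbours for CCN2) were not compared, and their libraries overlapped.

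CCN4 had 73 counts in all, in 14 of the 15 libraries, too few to enter the test. Without a mold it had 3, 5 and 2 counts (pooled 1.20 CPM, exact Poisson 95% interval 0.573 to 2.20), in the unanchored middle 5, 7 and 8 (1.05, 0.639 to 1.61) and in the unanchored post 4, 7 and 2 (0.765, 0.407 to 1.31). The anchored middle had 2, 7 and 5 counts (0.817, 0.447 to 1.37) and the anchored post 9, 0 and 7 (0.880, 0.503 to 1.43). These intervals all overlap and cover counting error only, and a count of 0 in anchored post 2 allows up to 0.548 CPM (3 counts). Fitted with no filter, among 21304 genes, CCN4 gave adjusted p-values of 0.788 to 1 by edgeR, and log2 values of -0.40 for molded against no mold, -0.19 for post against middle and -0.06 for anchored against unanchored. A difference was not detectable at this depth. CCN6, the remaining family gene, had 6 counts in 4 libraries.

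Genes around the CCN proteins were read from 7 lists, whose counts stand beside a background of 8.51% of all tested genes called between post and middle (614 lower and 393 higher) and 16% between molded tissue and no mold (936 lower and 952 higher). Of 12 receptors and co-receptors 11 were tested, and in the posts 2 were lower and 0 higher than in the middle (median log2 difference -0.20, against -0.01 over all tested genes). These were LRP1, an endocytic receptor that binds CCN2, at 419 against 546 CPM (log2 -0.38, SE 0.0937, adjusted p = 0.013 by edgeR), and HSPG2, which encodes perlecan, a heparan sulfate proteoglycan, at 42.4 against 61.4 CPM (log2 -0.52, SE 0.133, adjusted p = 0.0171). The HSPG2 call was lost without unanchored middle 2 (adjusted p = 0.0684 by edgeR). Non-whole values held 43.8% of the LRP1 counts and 0% of the HSPG2 counts. Between molded tissue and no mold, ITGA5, a subunit of the fibronectin receptor, was lower (log2 -0.31, adjusted p = 0.0125), and no other receptor passed (list median 0.09, against 0.0003 over all genes). The ITGA5 call was lost without no mold 1 (0.0903), without no mold 2 (0.0735) and without the 3 shallowest libraries (0.113).

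Of 8 YAP/TAZ and TEAD factors, the regulators through which CCN1 and CCN2 are best known, 7 were tested and none passed between regions (median 0.06). Against no mold, 2 of the 7 were lower in molded tissue (median -0.17; background 16%). They were YAP1, at 4.39 against 7.59 CPM (log2 -0.81, adjusted p = 0.00907 by edgeR), and TEAD3 (log2 -0.42, adjusted p = 0.0121). Both calls were lost without no mold 2 (YAP1 0.111, TEAD3 0.131) and without the 3 shallowest libraries (YAP1 0.107, TEAD3 0.0948), and that of TEAD3 also without no mold 3 (0.0561). Of 22 YAP/TEAD targets other than CCN genes 19 were tested. Between post and middle, 1 of the 19 was higher and 2 were lower (median -0.06; background 8.51%), and between molded tissue and no mold 2 were higher and 0 lower (median 0.03; background 16%).

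IGFBP3, a secreted carrier of insulin-like growth factors in that list, was lower in the posts at 621 against 1266 CPM (log2 -1.04, SE 0.101, adjusted p = 2.87e-06 by edgeR) and higher in molded tissue than without a mold (log2 0.57, adjusted p = 0.00183). Non-whole values held 28.0% of the IGFBP3 counts. GADD45A, a growth-arrest gene, was higher in the posts (log2 0.26, adjusted p = 0.0173 by edgeR). DLC1 was lower (log2 -0.32, adjusted p = 0.0216), and its call was lost without unanchored middle 1 (0.0559), unanchored middle 2 (0.084) or unanchored post 3 (0.0746). MYOF, a membrane repair protein, was higher in molded tissue (log2 0.34, adjusted p = 0.0101), a call lost without no mold 3 (0.08) and without the 3 shallowest libraries (0.223).

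Of 13 TGF-β response genes 12 were tested, and none passed between regions (median -0.22). SKIL, a feedback inhibitor of SMAD signalling, was the 1 that passed against no mold and was higher in molded tissue (log2 0.67, adjusted p = 0.00914 by edgeR; list median 0.08). The SKIL call was lost without no mold 2 (0.111) and without the 3 shallowest libraries (0.0974). Of 13 SRF/MRTF contractile genes, all tested, FHL2 alone was higher in the posts (log2 0.23, adjusted p = 0.0333; list median 0.08), a call lost in 8 of 20 alternatives with adjusted p-values up to 0.118.

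Molded tissue had 3 of these contractile genes higher and 2 lower than tissue without a mold, of 13 (median -0.01; background 16%). CALD1, which encodes the actin-binding protein caldesmon, was higher (log2 0.69, adjusted p = 1.79e-05 by edgeR), with 37.9% of its counts in non-whole values. ACTA2, smooth muscle actin, was higher (log2 0.36, adjusted p = 0.0308 by edgeR), with 85.9% of its counts in non-whole values. The ACTA2 call was lost without no mold 1 (0.183) or no mold 3 (0.139). It was also lost without the 3 shallowest libraries, which leaves 1 no-mold library (log2 0.15). SRF, the transcription factor of that list, was lower (log2 -0.59, adjusted p = 0.0177). Its call was lost without no mold 1, 2 or 3 (0.0653, 0.102 and 0.0586) and without the 3 shallowest libraries (0.206). Of 11 Wnt response genes, the group that gave CCN4 its older name, 10 were in the table and 2 were tested, with none called in the main comparisons.

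Of 11 other matricellular genes 9 were tested, and in the posts 5 were lower and 0 higher than in the middle (median -0.38; background 8.51%). SMOC2 and SMOC1, modular calcium-binding matrix proteins, were lower at 61.1 against 142 CPM (log2 -1.20, SE 0.209, adjusted p = 0.000894 by edgeR) and at 83.4 against 130.0 CPM (log2 -0.63, SE 0.136, adjusted p = 0.00515). SPARC, a collagen-binding glycoprotein, was lower (log2 -0.41, adjusted p = 0.023), a call lost in 5 of 20 alternatives (adjusted p = 0.0537 to 0.0769). Non-whole values held 36.2% of the SMOC2, 33.5% of the SMOC1 and 26.0% of the SPARC counts. In molded tissue 3 were higher than without a mold and 0 lower (median 0.37; background 16%). Tenascin C (TNC) stood at 292 against 144 CPM (log2 1.00, adjusted p = 2.92e-05), periostin (POSTN) at 325 against 182 CPM (log2 0.81, adjusted p = 1.62e-05) and THBS2, thrombospondin 2, at 72.0 against 47.8 CPM (log2 0.61, adjusted p = 0.00681). The THBS2 call was lost without no mold 2 (adjusted p = 0.0859 by edgeR). Of the TNC counts 29.2% sat in non-whole values, and of the POSTN counts 5.70%. In none of the 7 lists did a gene pass between anchored and unanchored tissue, where 0 of all 11834 tested genes passed.

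**Figure D4:**
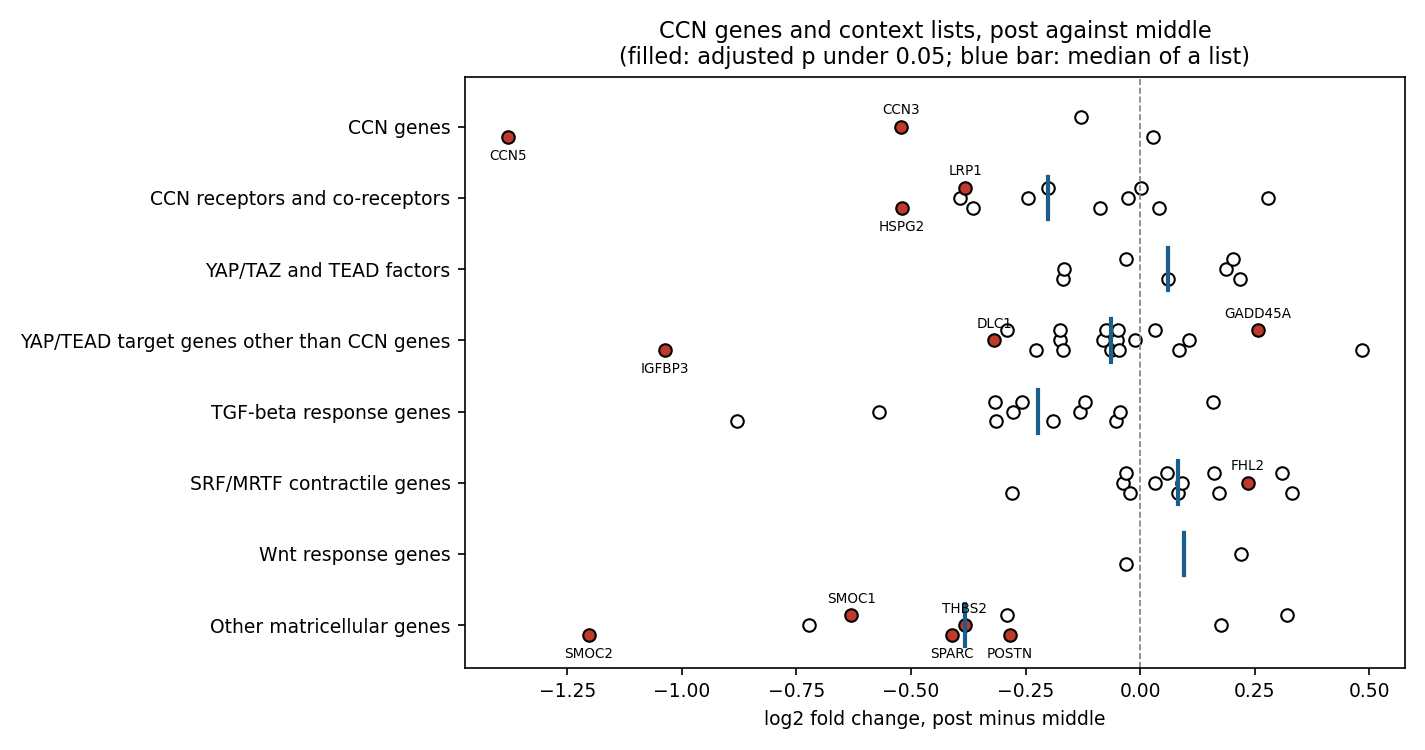
Log2 differences of post against middle, averaged over mold types, for the tested CCN genes and the tested genes of the 7 lists, 1 row per list; each point is a gene, filled where edgeR's adjusted p was under 0.05, and the blue bar is the median of a list. The median of the other matricellular genes is at -0.38 and that of the YAP/TEAD targets at -0.06, with IGFBP3 at -1.04 the lowest of the latter.

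The genes whose pattern over the 15 libraries was most like that of each member were found by Pearson's r of log2 CPM, among 7091 tested genes with a unique symbol and a mean of at least 10 CPM. The libraries share their groups and their depth, so r is a description. For CCN5 the 3 most alike were IGFBP3 (0.94), C1R (0.90) and NMB (0.89). IGFBP3 stood at 1328 ± 90.0 CPM in the unanchored middle and 1204 ± 69.7 in the anchored middle, against 695 ± 94.9 in the unanchored post, 548 ± 38.6 in the anchored post and 597 ± 154 without a mold (SD, n = 3), so its high groups were those of CCN5. C1R stood at 33.3 ± 5.25 CPM in the unanchored middle, 16.1 ± 3.24 in the anchored post and 19.1 ± 5.42 without a mold. NMB stood at 98.7 ± 10.2, 54.5 ± 13.8 and 79.7 ± 23.8 CPM in the same groups. Its mean without a mold thus lay between its middle and post means (unanchored post 60.4 ± 16.3 CPM). Genes most like CCN3 included TUT7 (0.94) and MLLT10 (0.91), those most like CCN1 included ID3 (0.91) and PLPP1 (0.90), and the 3 most like CCN2 were MAGED1 (0.81), PDXDC1 (0.80) and LZTS2 (0.78).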

How the data were processed

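Per the labels' protocols, messenger RNA was primed by oligo-dT carrying a barcode and molecular identifier, and the cDNA was tagmented. The submitters' processing notes name featureCounts, Subread 2.1.1, STAR 2.7, MultiQC 1.33 and SAMtools 1.21. Build, annotation, counting settings and any collapsing of molecular identifiers: not given in the sources used here. Uncollapsed PCR copies would count as separate reads. The authors deposited CPM (not used for the tests) and expected counts; per library, 13.5% to 16.3% of values above 0 were not whole.

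Expected counts were rounded, the 92 spike-in rows (at most 0.00127% of a library) were left out, genes were kept by filterByExpr (count 10, total 15), and TMM factors were 0.934 to 1.049. One edgeR 4.0.16 quasi-likelihood model (R 4.3.3) over all 15 libraries, a mean per group, gave 12 two-sided contrasts, adjusted over 11834 genes (threshold 0.05) after Benjamini and Hochberg. The method was tested on simulated data for molded against no mold only, and no other contrast was simulated. Standard errors are the log2 value over the square root of F. Alternatives used DESeq2 1.42.0, limma 3.58.1 (voom), other scaling, filters, rounding, blocks and left-out libraries.

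All 5 members are named. From each list, at most 3 genes per comparison past the threshold with the smallest adjusted p are named, and for each tested member the 3 genes of highest r (prior count 2), some of which are not reported here. Marker lists are given by counts of their genes, and not every marker is named. The members and lists were chosen with earlier results of these data known. RefSeq symbols (assembly ARS-UCD2.0) matched all 5. No sequence or coordinate is used here, and a planned promoter motif search was not run.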

Additional observations from a re-analysis of the deposited data

How the results depend on the processing

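The labels do not say what a replicate number shares, and no pair of groups had all 3 same-numbered correlations above 0.1 (lowest -0.170, highest 0.264). Between the unanchored middle and post, all 6 libraries correlated best with their own number, a hint from the data. Between the anchored middle and post 4 of 6 did, and as many did between no mold and the anchored post. With a replicate block, the post against middle difference was -1.38 for CCN5 and -0.52 for CCN3, no CCN call changed, and 1 gene was called for anchoring where the fit without it called 0.

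None of the reversed values that follow was called, and the cause was not tested. With no filter on low counts, CCN2 in molded against no mold was 0.0014, and CCN3 there passed at 0.39. Without the 3 shallowest libraries, which leaves 1 no-mold library assumed to vary like the other groups, CCN2 was 0.022 for anchored against unanchored middle and -0.10 for anchored post against no mold. In that setting CCN1 was -0.058 for unanchored middle against no mold, CCN3 -0.021 and CCN5 0.66 for unanchored post against no mold, and CCN3 -0.030 and CCN5 0.29 for anchored post against no mold.

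Leaving out 1 library at a time gave these log2 ranges. For CCN1 they were -0.16 to 0.20 (interaction), -0.32 to 0.040 (unanchored post against middle), -0.055 to 0.27 (unanchored middle against no mold) and -0.17 to 0.12 (unanchored post against no mold). For CCN2 they were -0.087 to 0.013 (molded), -0.018 to 0.062 (post against middle), -0.021 to 0.057 (anchored against unanchored), -0.014 to 0.13 and -0.10 to 0.047 (post against middle, anchored and unanchored), and -0.10 to 0.040 and -0.018 to 0.13 (anchoring in middle and post). Against no mold CCN2 gave -0.11 to 0.034 (unanchored middle), -0.12 to 0.0013 (unanchored post) and -0.084 to 0.064 (anchored post). For CCN3 they were -0.086 to 0.064 (anchored against unanchored post), -0.15 to 0.29 (unanchored post against no mold) and -0.16 to 0.28 (anchored post against no mold). For CCN5 they were -0.040 to 0.73 (molded), -0.41 to 0.0063 (interaction) and -0.55 to 0.22 (unanchored post against no mold).

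The number of genes called moved by over 1.5 times as follows. Molded against no mold had 1888 called, 335 without the 3 shallowest libraries and 856 to 2297 with 1 library left out. Post against middle had 1007, and 465 to 1150 with 1 left out. Anchored post against middle had 227, then 479 with no filter, 105 with only the groups compared and 62 to 283 with 1 left out. Unanchored post against middle had 53, then 133 by DESeq2, 272 with no filter, 192 with only the groups compared, 148 without the shallowest and 3 to 129 with 1 left out. With no filter, 66 were called for anchoring, 3 for the interaction, 28 for anchoring in the middle and 21 in the post, where 0 were called, and 0 to 1 for anchoring with 1 library left out. Against no mold, the counts called without the shallowest libraries were 421, 170, 411 and 82 for the unanchored middle and post and the anchored middle and post, in that order, where 1747, 1068, 1575 and 658 were called. With 1 left out they were 790 to 1491, 496 to 1076, 768 to 1861 and 251 to 616. For molded against no mold, all groups enter, so no fit of only the groups compared was run. DESeq2 gave no adjusted p for CCN5 in the unanchored posts against middles.

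CCN4 and CCN5 are limited by depth, with 73 and 793 counts.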
